A study of Mus musculus with 5 samples.

Results

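Oligodendrocytes make the myelin of the central nervous system, and their genes were followed here in primary mouse astrocyte cultures. The genes are the 9 members Mbp, Mobp, Mag, Cldn11, Cnp, Ugt8a, Sox10, Pdgfra and Olig1, taken by symbol from the authors' table of 18783 genes, and each symbol was found once. They were picked with the group means of all 3 treatments known, so their own levels, ratios and calls are a description and support nothing by themselves. The cultures came from newborn C57BL/6 pups and were harvested on day 12 in vitro. They were treated with 1 µM amyloid-β (Aβ) and 50 µM DFMO (Aβ+DFMO, 1 library), with 1 µM Aβ alone (2 libraries), or left untreated (Control, 2 libraries). Treatment began on day 7 and lasted 5 days. DFMO, difluoromethylornithine, irreversibly inhibits ornithine decarboxylase, the first enzyme of polyamine synthesis. The series asked how Aβ changes astrocytes and how blocking this enzyme changes Aβ-treated cells. No group held DFMO without Aβ, so the 2 agents cannot be told apart in the comparison of Aβ+DFMO with Control.

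Oligodendrocytes arise from progenitor cells that carry the receptor for platelet-derived growth factor encoded by Pdgfra. Olig1, a basic helix-loop-helix factor, and Sox10, an HMG-box factor, are expressed from the progenitor to the mature cell, and Sox10 activates myelin genes directly. As the cell matures it makes myelin. Genes of this stage include Mbp for a basic protein, Mobp for a structural protein, Mag for an adhesion protein and Cldn11 for a tight junction protein. Cnp encodes a phosphodiesterase, and Ugt8a the ceramide galactosyltransferase with which the galactolipids start. Astrocyte cultures from newborn brain commonly keep some cells of this lineage. Several members are also used by other cells: Pdgfra by fibroblasts of the meninges, and Cldn11 by barrier cells of the arachnoid.

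Promoters were searched for motifs because Sox10, itself a member, is a factor that binds DNA at SOX motifs in myelin genes. Sequences are shown only for the 4 members with a searched motif in a window, so the display was chosen by its matches. The windows of Cldn11 and Ugt8a held none of the motifs searched and are not shown. RefSeq (GRCm38.p6) gave start sites for 6 members: Mobp, Mag, Cldn11, Cnp, Ugt8a and Pdgfra. Each sequence is written 5′ to 3′ on the strand of its gene, from 250 to 51 bases before the start, upstream of the first exon. Capitals mark a SOX motif, ACAAAG or its reverse complement, in Mobp, Mag and Cnp, and the reverse complement of the E-box CAGATG, of the kind that factors related to Olig1 bind, in Pdgfra.
Mobp, chr9:120149492-120149691, plus strand: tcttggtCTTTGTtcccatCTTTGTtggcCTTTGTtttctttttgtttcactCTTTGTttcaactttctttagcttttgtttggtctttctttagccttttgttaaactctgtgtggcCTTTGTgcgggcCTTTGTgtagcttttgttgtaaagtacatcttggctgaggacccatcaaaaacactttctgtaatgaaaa
Mag, chr7:30914973-30915172, minus strand: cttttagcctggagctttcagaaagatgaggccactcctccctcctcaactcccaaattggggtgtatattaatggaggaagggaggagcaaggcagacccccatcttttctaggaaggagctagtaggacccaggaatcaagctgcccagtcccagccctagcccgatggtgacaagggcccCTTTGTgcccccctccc
Cnp, chr11:100574689-100574888, plus strand: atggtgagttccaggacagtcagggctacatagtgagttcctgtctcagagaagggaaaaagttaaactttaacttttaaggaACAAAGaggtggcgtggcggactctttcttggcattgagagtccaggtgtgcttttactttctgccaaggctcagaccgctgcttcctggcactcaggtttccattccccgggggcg
Pdgfra, chr5:75152001-75152200, plus strand: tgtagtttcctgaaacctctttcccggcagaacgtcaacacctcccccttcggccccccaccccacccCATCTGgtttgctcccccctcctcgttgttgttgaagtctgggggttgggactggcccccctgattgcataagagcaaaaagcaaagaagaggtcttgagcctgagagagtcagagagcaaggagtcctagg
The 6 genes had 8 windows, since Mag has 3 start sites. The letters ACAAAG, searched on both strands, were in 4 of these 8 windows and in 13.6% of 32851 promoter windows of the same length. The 4 windows belong to 3 genes, and 2 of them are overlapping windows of Mag that hold the same copy. Mobp held them 6 times within its window. CAGATG was in 1 of the 8 windows, that of Pdgfra, and in 12.0% of all windows. The SOX motif ACAATG was in none of the member windows and in 8.94% of all windows. The E-box CAGCTG was in none of them and in 10.3% of all windows. The TATA box letters TATAAA were likewise in none, and in 9.14% of all windows. A match describes the letters and not binding.

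In the GRCm38 annotation (GENCODE M21) the promoters shown belong to Mobp at chr9:120149707-120181484, Mag at chr7:30899176-30914873 on the minus strand, Cnp at chr11:100574904-100591729 and Pdgfra at chr5:75152292-75198215. Cldn11 lies at chr3:31149920-31164324 and Olig1 at chr16:91269772-91271933, with Ugt8a at chr3:125865271-125938619 and Sox10 at chr15:79154908-79165240 on the minus strand. All are protein-coding genes.

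Depth was uneven. The Aβ+DFMO library had 4825677 reads, against 46886111 and 105544237 in the Aβ libraries and 49020833 and 49676004 in the Control libraries. The values per gene are the authors' normalized means of each group, with no value per library. All 13 astrocyte markers were measured, led by Gfap, the astrocyte intermediate filament, at a group mean of 41383 in Aβ+DFMO, 57495 in Aβ and 57209 in Control. Where an error is given for a log2 ratio, it is the standard error implied by the authors' DESeq2 p-value. Low values of the Aβ+DFMO column lay in steps of 7.45 normalized units, taken as the worth of 1 read, from which the number of reads per member in that library was estimated.

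All 6 mature myelin members were lower in the Aβ+DFMO library than in the Aβ cultures, at 33.6% to 61.2% of the Aβ mean. Mbp, the major basic protein of myelin, had a normalized mean of 1468 in Aβ+DFMO, 4374 in Aβ and 4182 in Control, so that Aβ+DFMO stood at 33.6% of Aβ (log2 ratio −1.58, implied standard error 0.146). The Aβ and Control means of Mbp lay close together and the Aβ+DFMO value lay far below both. About 197 reads stood behind it, with a 95% exact Poisson interval of 1270 to 1688 normalized units that covers counting error only.

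Mag, which holds the myelin sheath to the axon, had a mean of 261 in Aβ+DFMO, 597 in Aβ and 526 in Control (log2 ratio of Aβ+DFMO to Aβ −1.20, implied standard error 0.305). Cldn11, the claudin that seals the layers of myelin, had a mean of 544 in Aβ+DFMO, 1219.9 in Aβ and 1105 in Control (−1.17, implied standard error 0.227). Mobp, a small basic protein of compact myelin, had a mean of 402 in Aβ+DFMO, 802 in Aβ and 699 in Control (−0.995, implied standard error 0.254). For these 3 genes Aβ+DFMO was the lowest and Aβ the highest of the groups. They rested on about 35, 73 and 54 reads in the Aβ+DFMO library, and the upper ends of their counting intervals, 363, 684 and 525 units, stayed below the Aβ and Control means.

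Ugt8a, which makes the galactolipids of myelin, had a mean of 529 in Aβ+DFMO, 949 in Aβ and 1014 in Control (log2 ratio of Aβ+DFMO to Aβ −0.84, implied standard error 0.232). Cnp, an enzyme and scaffold of the uncompacted myelin loops, had a mean of 3779 in Aβ+DFMO, 6178 in Aβ and 6869 in Control (−0.71, implied standard error 0.115). Cnp was thus the least lowered mature member, at 61.2% of Aβ, and both Cnp and Ugt8a were lowest in Aβ+DFMO and highest in Control. Cnp overlaps Dnajc7 on the opposite strand in the annotation, and no source used here states whether counting took account of strand, so reads of the pair may be shared.

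The 3 progenitor and lineage factor members were lower as well. Sox10 had a mean of 276 in Aβ+DFMO, 975 in Aβ and 997 in Control, which is 28.3% of Aβ and the lowest share among the 9 members (log2 ratio −1.82, implied standard error 0.299, about 37 reads). Olig1 had a mean of 9107 in Aβ+DFMO, 17044 in Aβ and 17131 in Control (−0.90, implied standard error 0.0982, about 1222 reads). Its Aβ and Control means were almost equal. A long non-coding RNA gene overlaps Olig1 on the opposite strand.

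Pdgfra, the receptor of the progenitor, had a mean of 1781 in Aβ+DFMO, 4333 in Aβ and 4618 in Control (log2 ratio of Aβ+DFMO to Aβ −1.28, implied standard error 0.476). It alone among the members failed to pass in the authors' deposited table, with an adjusted p of 0.067, although about 239 reads stood behind it. Its implied standard error was larger than those of 99.8% of the 891 genes whose Aβ mean lay within 1.25 times its own, where the median was 0.12. That share was high for most members: it ran from 65.5% for Olig1 to 99.1% for Sox10 among the others. For Aβ against Control the implied standard error was 0.382 for Pdgfra, beside a median of 0.0856 over its 891 genes. Values per library were not used here, so what made this error large was not examined. Pdgfra overlaps 2 predicted genes on the opposite strand in the annotation.

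**Figure D1:**
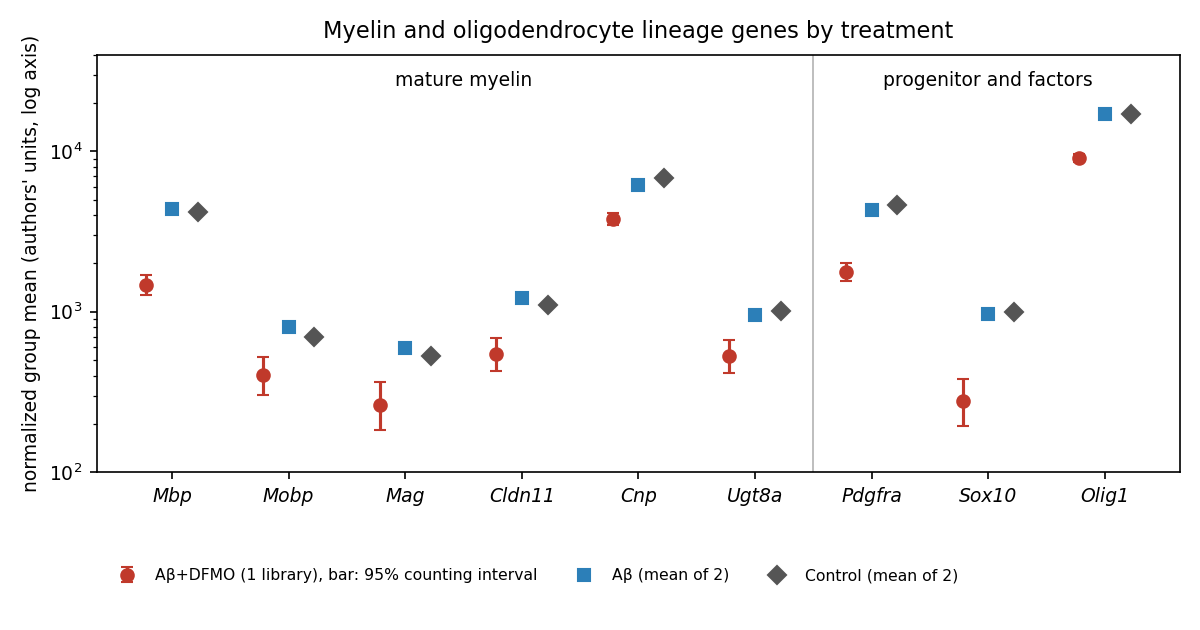
Normalized group mean of each member on a log axis, for Aβ+DFMO (1 library, circles, with 95% counting intervals), Aβ (mean of 2 libraries, squares) and Control (mean of 2 libraries, diamonds). The Aβ+DFMO value lies below the other means for all 9 genes, from 28.3% of Aβ for Sox10 to 61.2% for Cnp.

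In Aβ+DFMO against Aβ, 8 of the 9 members fell by the authors' deposited table (adjusted p under 0.05), where 9.18% of all genes passed, 5.18% lower and 4.0% higher. The members had been chosen on these values, so nothing is read from that count. Their median log2 ratio was −1.17, beside 0.008 over all 18783 genes. The authors' deposited table gave Mbp the smallest adjusted p of the members, 8.49e-24, followed by Olig1 at 5.8e-17. The lone Aβ+DFMO library gives no spread of its own, and these p-values borrow it from the other groups.

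The mature members and the progenitor and factor members overlapped in how far they were lowered, a contrast that no test here covers. The log2 ratio of Aβ+DFMO to Aβ ran from −1.58 to −0.71 among the 6 mature members, with a median of −1.08, and from −1.82 to −0.90 among Pdgfra, Sox10 and Olig1, with a median of −1.28. The medians differed by 0.20, mature minus progenitor. Summed over the mature members the normalized means were 6984 in Aβ+DFMO, 14121 in Aβ and 14394 in Control. Summed over Pdgfra, Sox10 and Olig1 they were 11164 in Aβ+DFMO, 22351 in Aβ and 22746 in Control. Aβ+DFMO thus held 49.5% of the Aβ sum for the mature members and 49.9% for the progenitor and factor members. Each sum leans on 1 gene: in Aβ+DFMO Olig1 held 9107 of 11164 units and Cnp 3779 of 6984. Gene by gene, Aβ+DFMO stood at 53.4% of Aβ for Olig1, 41.1% for Pdgfra and 28.3% for Sox10. For the mature members it stood at 33.6% (Mbp) to 61.2% (Cnp). In bulk RNA, fewer cells of a lineage and less RNA per cell cannot be told apart.

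**Figure D2:**
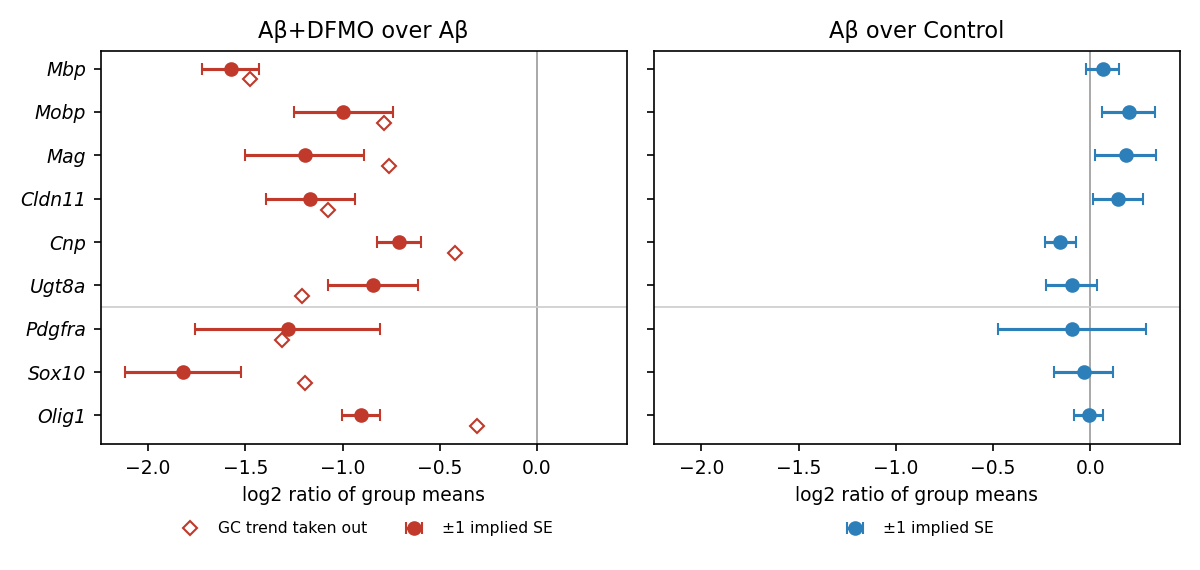
Log2 ratio of group means for each member, Aβ+DFMO over Aβ on the left and Aβ over Control on the right, with bars of 1 implied standard error and, on the left, open diamonds for the ratio after the trend with GC content was taken out. All ratios on the left are below 0, and those on the right lie between −0.15 and 0.20.

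Between Aβ and Control the members' means lay close together. By the authors' deposited DESeq2 table no member passed (adjusted p under 0.05), where 0.287% of all genes did, 0.112% higher and 0.176% lower. None had an unadjusted p under 0.05 in the authors' deposited table either, against 324 genes in all. Mobp had the highest log2 ratio of Aβ to Control, 0.20 with an implied standard error of 0.137, and Cnp the lowest, −0.15 with 0.079. The mature members Mobp, Mag, Cldn11 and Mbp lay above 0, at 0.20, 0.18, 0.14 and 0.06, and Cnp and Ugt8a lay below, at −0.15 and −0.09. The progenitor and factor members lay between −0.09 for Pdgfra and −0.01 for Olig1. For this comparison the authors' deposited table put 1.72% of all genes under an unadjusted p of 0.05, and a gene that did not pass is not shown to be unchanged. The implied standard errors of 0.0731 for Olig1 to 0.382 for Pdgfra set the size of change this comparison could have shown.

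Against the untreated cultures, the Aβ+DFMO library was again lower for each member, in a comparison that the authors' table does not test. The log2 ratio of Aβ+DFMO to Control ran from −1.85 for Sox10 to −0.80 for Mobp, with a median of −1.01. Mbp stood at 35.1% of Control, Pdgfra at 38.6% and Olig1 at 53.2%. This comparison shares the Aβ+DFMO library with the one before it, so the values are set side by side and do not count as a repeat.

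GC content moved with the ratio over the whole table and is given here beside each member. Over the 11743 genes that had a GC value and stood at or above 200 in the Aβ mean, Spearman's rho between the GC content of the longest transcript and the log2 ratio of Aβ+DFMO to Aβ was −0.70, and 0.11 for Aβ to Control. Those genes share the same libraries and are not independent replicates. Ugt8a had 38.0% GC and a trend value of 0.36 at that content, Pdgfra 48.1% and 0.03, Cldn11 50.9% and −0.09, Mbp 51.0% and −0.10, and Mobp 53.3% and −0.21. At the GC-rich end stood Cnp with 54.8% and −0.29, Mag with 57.6% and −0.44, Olig1 with 61.1% and −0.60 and Sox10 with 61.8% and −0.63.

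After the trend was taken out, the 9 log2 ratios of Aβ+DFMO to Aβ stayed below 0, with a median of −1.07. Mbp stood at −1.47, Pdgfra at −1.31, Ugt8a at −1.21, Sox10 at −1.19 and Cldn11 at −1.07. Mobp stood at −0.79, Mag at −0.76, Cnp at −0.42 and Olig1 at −0.31. Ugt8a, with the least GC of the 9, and Pdgfra thus lay further below 0 than before. Sox10 and Olig1, with the most GC, moved most towards 0, by the trend values of −0.63 and −0.60. With p-values recomputed from the implied standard errors and adjusted over 18592 genes, 5 of the 9 members passed as lower (Mbp, Ugt8a, Cldn11, Sox10 and Cnp), where 1.69% of all genes passed, 0.748% lower and 0.947% higher. Olig1 (adjusted p = 0.0812), Mobp (0.0904), Pdgfra (0.181) and Mag (0.275) did not pass by this calculation from the authors' DESeq2 p-values. With the GC content averaged over all transcripts of a gene, an alternative chosen after seeing the data, Mobp passed too and 6 members did. The share of all genes that passed under this alternative is not given here, so nothing is read from that count.

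**Figure D3:**
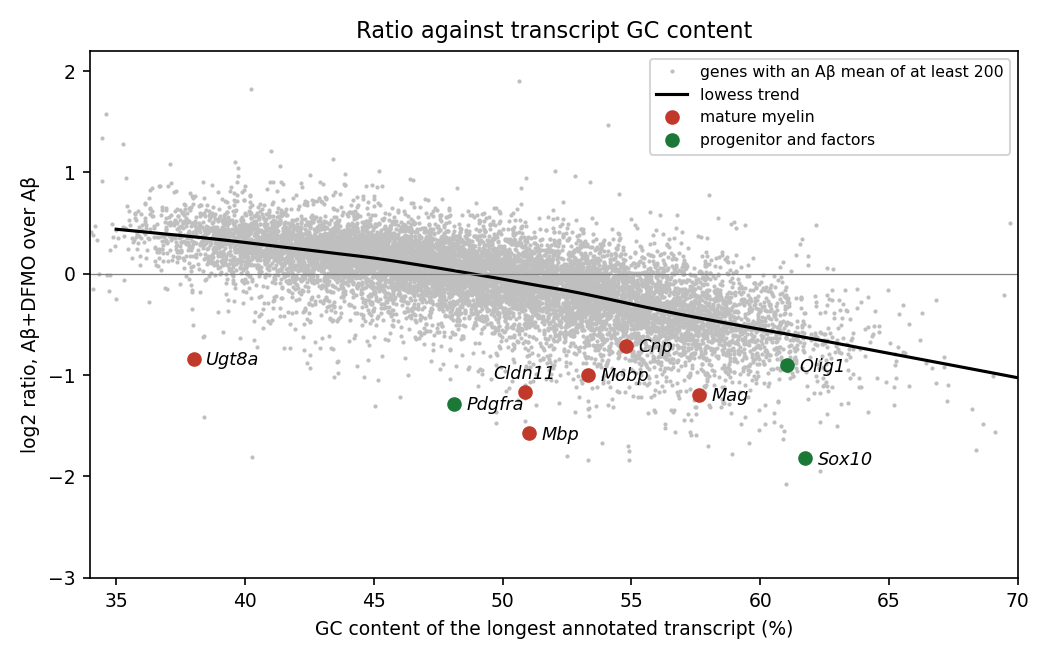
Log2 ratio of Aβ+DFMO to Aβ against the GC content of the longest annotated transcript, for genes at or above 200 in the Aβ mean (grey), with the lowess trend (line), the mature members (red) and the progenitor and factor members (green); genes beyond the axes are not drawn. Each member lies below the line, from −1.47 for Mbp to −0.31 for Olig1 relative to it.

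Beyond the members, further lineage genes were read from 4 lists (progenitor, premyelinating, mature myelin and galactolipid genes), of which 64 measured genes are no members. In Aβ+DFMO against Aβ, 12 of these 64 fell and 3 rose in the authors' deposited table, so 18.8% were lower, beside 5.18% of all genes. Their median log2 ratio was −0.48, and 51 of the 64 lay below 0, beside 49.3% of all genes. After removal of the GC trend, 5 of the 64 were called lower and none higher, 7.81% beside 0.748% of all genes, and the median was −0.24. Of these genes, 20 had fewer than 20 estimated reads in the Aβ+DFMO library. In Aβ against Control no gene of these lists passed in the authors' deposited DESeq2 table, and none had an unadjusted p under 0.05.

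Among the 16 measured progenitor genes that are no members, 6 fell and none rose in the authors' deposited table of Aβ+DFMO against Aβ. Of all genes 5.18% were lower and 4.0% higher. The median log2 ratio of the 16 was −0.71. Tnr, the matrix protein tenascin-R, had a mean of 1997 in Aβ+DFMO, 3706 in Aβ and 3740.5 in Control, and its log2 ratio of Aβ+DFMO to Aβ was −0.89 (adjusted p = 2.96e-06 in the authors' deposited table). Olig2, the partner of Olig1 in lineage specification, had a mean of 2638 in Aβ+DFMO, 4129 in Aβ and 4119 in Control (log2 ratio −0.65). Cacng4, an auxiliary subunit of AMPA receptors, had a mean of 723 in Aβ+DFMO, 1446 in Aβ and 1518 in Control, and Bcan, the proteoglycan brevican, had a log2 ratio of −0.77. These 4 passed, with Cspg4 (the NG2 proteoglycan, −1.17) and C1ql1 (−1.11) in the authors' deposited table; the last 2 were named after their values were seen. Ptprz1, a receptor phosphatase, had a mean of 22193 in Aβ+DFMO, 22715 in Aβ and 20663 in Control (−0.03). Sox6, an HMG-box factor of progenitors, had a log2 ratio of −0.12, and neither gene passed. Astrocytes share some genes of this list, and which cells made them was not tested, for those that fell or for those that did not. With the GC trend taken out, Tnr (−0.94) and Cacng4 (−0.74) passed, as did Lhfpl3 (−0.68), named after its values were seen. Olig2 (−0.17), Bcan (−0.19), Cspg4 (−0.66) and C1ql1 (−0.29) then did not pass.

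Of the 25 measured mature myelin genes that are no members, 2 fell and 1 rose in the authors' deposited table of Aβ+DFMO against Aβ. This was near the 5.18% lower and 4.0% higher of all genes, and the median log2 ratio of the 25 was −0.50. After removal of the GC trend 2 of the 25 were called lower and none higher, beside 0.748% and 0.947% of all genes. Their median was then again −0.50. Tubb4a, a tubulin of oligodendrocytes and neurons, had a mean of 1423 in Aβ+DFMO, 2876 in Aβ and 2767 in Control (−1.01, and −0.60 after removal of the GC trend, where it passed). Tspan2, a tetraspanin of myelin, rose by 0.50 in the authors' deposited table, at a mean of 1967 in Aβ+DFMO, 1390.1 in Aβ and 1415 in Control, and did not pass with the GC trend taken out (0.26). Plekhb1, Trf (the iron carrier transferrin) and Lpar1 had log2 ratios of −0.08, −0.27 and 0.06 and did not pass.

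The premyelinating list had 13 measured genes, none of them members. In the authors' deposited table of Aβ+DFMO against Aβ, 2 fell and 1 rose, beside 5.18% lower and 4.0% higher of all genes. The median log2 ratio of the 13 was −0.24. Bcas1, a marker of oligodendrocytes that begin to myelinate, had a mean of 320.5 in Aβ+DFMO, 687 in Aβ and 622 in Control (−1.10), and Sirt2, a deacetylase of myelin, had a log2 ratio of −0.43. Rras2 rose by 0.46 in the authors' deposited table, and Fyn (−0.14), Tcf7l2 (0.12) and Cemip2 (0.25) did not pass. None of the 13 passed with the GC trend taken out.

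Galactolipid enzymes other than Ugt8a moved in both directions. Of 10 measured, 2 fell and 1 rose in the authors' deposited table of Aβ+DFMO against Aβ, with a median log2 ratio of −0.17. Over all genes 5.18% were lower and 4.0% higher. Arsa, which breaks down sulfatide, had a log2 ratio of −0.61 and Elovl1, which lengthens fatty acids, one of −0.59. Galc, which breaks down galactosylceramide, rose by 0.32 in the authors' deposited table, at a mean of 5910 in Aβ+DFMO, 4726 in Aβ and 4620.4 in Control. The ceramide enzymes Cers2 (−0.33), Degs1 (0.07), Sptlc2 (0.27) and Asah1 (0.22) did not pass. None of the 10 passed with the GC trend taken out.

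No measured PDGF ligand was called lower, nor was the receptor gene Pdgfra. Pdgfc had a mean of 1796 in Aβ+DFMO, 1239 in Aβ and 1282 in Control, and Pdgfd, a ligand of the related beta receptor, one of 2504 in Aβ+DFMO, 1435 in Aβ and 1497 in Control. Both rose in the authors' deposited table, by 0.54 and 0.80 on the log2 scale, and with the GC trend taken out Pdgfc passed (0.62) and Pdgfd did not (0.49). Pdgfa, the main ligand of progenitors, had a log2 ratio of 0.27, Pdgfb one of −0.17 and the beta receptor Pdgfrb one of −0.13, and none of these 3 passed. In a list of regulators of oligodendrocyte differentiation, drawn up mainly for those that hold it back, 0 of 11 passed in the authors' deposited table. Over all genes 9.18% passed. The median log2 ratio of Aβ+DFMO to Aβ was 0.13. Within this list Id2 and Id4, inhibitors of helix-loop-helix factors, had log2 ratios of 0.20 and 0.25, Tcf12 one of 0.13 and Notch1 one of −0.65.

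**Figure D4:**
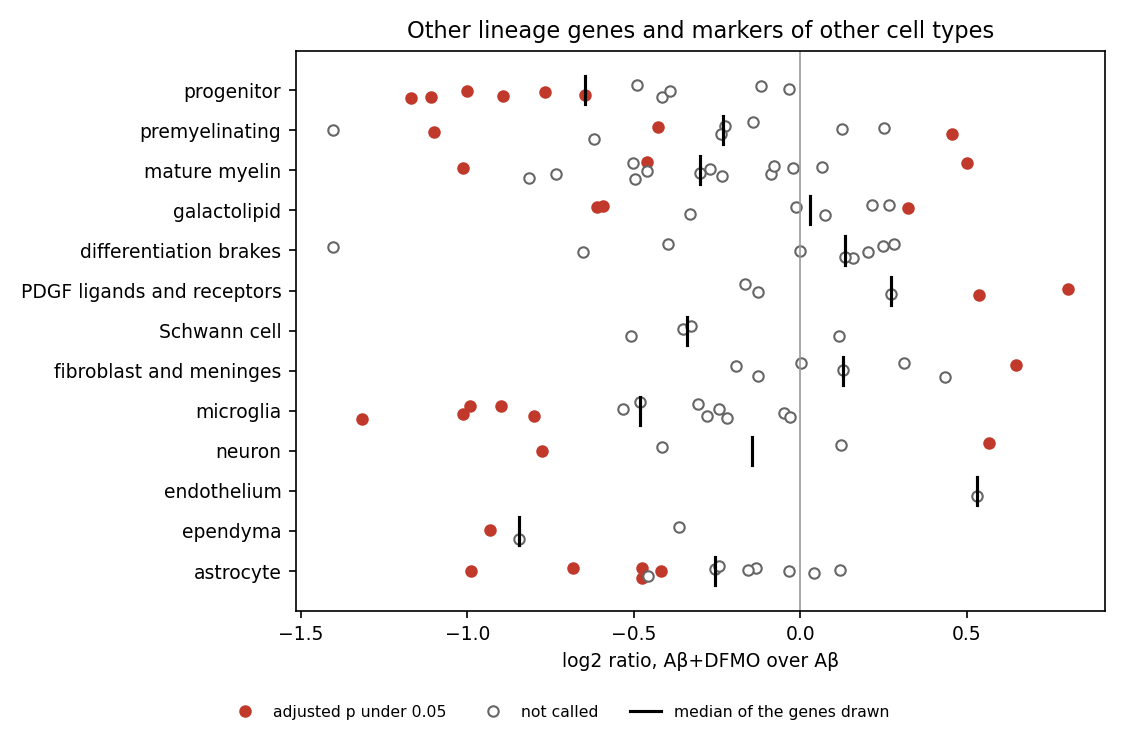
Log2 ratio of Aβ+DFMO to Aβ for the genes of each list other than the 9 members, drawn where the mean over the 3 groups was at least 200. Filled points passed by the authors' deposited table (adjusted p under 0.05) and bars are medians of the genes drawn. The progenitor list has 6 of 11 genes drawn called lower, and the microglial and astrocyte lists 5 of 13 each, beside 5.18% of all genes.

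Markers of other cells were read in the same comparison, since some of them share members. Of the 12 measured fibroblast and meningeal markers, which matter for Pdgfra and Cldn11, none fell and 1 rose in the authors' deposited table. Over all genes 5.18% were lower and 4.0% higher. The summed means of the 12 were 38700 in Aβ+DFMO, 32946 in Aβ and 31728 in Control. The median log2 ratio of the 12 was −0.02. Ogn, osteoglycin, was the largest part of the sums, at 17342 in Aβ+DFMO, 11076 in Aβ and 11087 in Control. It rose by 0.65 in the authors' deposited table, while Col1a1 (−0.19) and Col3a1 (0.00) did not pass. After removal of the GC trend Ogn stood at 0.24 (adjusted p = 0.292 from the authors' DESeq2 p-values) and did not pass. In that setting 2 others, Col1a2 (0.46) and Foxc1 (0.78), were called higher, beside 0.947% of all genes. Col1a2 was named after its values were seen. Of the 9 measured Schwann cell markers, whose cells also use Sox10, none passed in the authors' deposited table, and the summed means were 3108 in Aβ+DFMO, 3465 in Aβ and 3867 in Control. The highest of them, Cdh19, had a log2 ratio of 0.12 and Ngfr one of −0.51.

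Some astrocyte and microglial markers were lower too. Of 13 astrocyte markers 5 fell and none rose in the authors' deposited table, where 5.18% of all genes were lower and 4.0% higher. The median log2 ratio of the 13 was −0.26, and their summed means were 171367 in Aβ+DFMO, 211787 in Aβ and 211831 in Control. After removal of the GC trend 5 of the 13 were called lower, beside 0.748% of all genes, and the median was −0.28. The largest of the falls was that of Aldoc, a glycolytic enzyme of astrocytes, by 0.99 on the log2 scale in the authors' deposited table. Of 16 microglial markers 5 fell and none rose in the authors' deposited table, beside the same 5.18% and 4.0% of all genes. The median of the 16 was −0.30, and their summed means were 24401 in Aβ+DFMO, 31812 in Aβ and 42340 in Control. C1qc, a chain of complement C1q, had the smallest adjusted p of them and a log2 ratio of −1.32. After removal of the GC trend 3 of the 16 were called lower, beside 0.748% of all genes, and the median was −0.20. Microglial markers also differed between Aβ and Control, where 8 of 16 fell in the authors' deposited table, beside 0.176% of all genes.

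The other marker lists stayed mixed, where 5.18% of all genes were lower and 4.0% higher in the authors' deposited table. Of 10 measured neuron markers, Stmn2 rose by 0.57 and Tubb3 fell by 0.78 in the authors' deposited table, with summed means of 23087 in Aβ+DFMO, 19778 in Aβ and 20305 in Control. Neither passed after removal of the GC trend, where Stmn2 stood at 0.30 and Tubb3 at −0.33. Of 7 ependymal markers 1 fell, Foxj1, by 0.93 in the authors' deposited table, with sums of 2956 in Aβ+DFMO, 5258 in Aβ and 5278 in Control. It did not pass after removal of the GC trend, at −0.32. None of 7 endothelial markers passed in the authors' deposited table, at sums of 909 in Aβ+DFMO, 813 in Aβ and 805 in Control. Depth, GC content and these markers moved with the Aβ+DFMO library, and beyond the GC trend given above their part in the members' lower levels was not tested.

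Genes with the most similar pattern were sought among 10970 named genes at or above 200 in the Aβ mean, by the distance between the pairs of log2 ratios (Aβ to Control, and Aβ+DFMO to Aβ) over the 3 groups. Nearest to Mbp were Faap100, Dgat2, Pcsk1n and Sarm1, at distances of 0.0472 to 0.0866 in log2 units. Nearest to Pdgfra were Nr2f6, Slc8a2, Acad12 and Tbkbp1, at 0.0238 to 0.0488. None of these 8 genes is in a lineage list. Several rest on few reads in the Aβ+DFMO library, where 1 read was worth 7.45 units. Dgat2, Sarm1 and Faap100 had means there of 74.5, 82.0 and 119.2, and Tbkbp1 and Acad12 of 104.3 and 111.8. The distances carry no counting error, and the GC trend was left in, so this ranking is rough. Pcsk1n, the highest of them, had a mean of 514 in Aβ+DFMO, 1514 in Aβ and 1515 in Control.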

How the data were processed

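Messenger RNA was sequenced from 1 Aβ+DFMO, 2 Aβ and 2 Control libraries of cultured mouse astrocytes; whether the 2 libraries of a group were separate cultures is not stated in the labels, so the p-values may rest on technical spread. STAR 2.7.3a, Partek, DESeq2 and FastQC, and the builds mm10 and GRCm39, are listed without roles in the submitters' processing notes. How reads were counted, filtered and scaled is not stated in any source used here.

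Per the file headers, the authors deposited a normalized signal as group means, their ratio and log2 ratio, and a p-value with its adjusted value for each gene; no values per library were used, so nothing was re-tested. The log2 ratios were computed from these means and equal those the authors deposited, and the deposited adjusted p-values were checked to be Benjamini-Hochberg values over 18783 genes. The implied standard error is the log2 ratio divided by the normal deviate of the authors' two-sided p, assuming a Wald test. The worth of 1 read, 7.45 units, is the step that 80.2% of the 7239 values under 200 in the Aβ+DFMO column were whole multiples of, within 0.05 of a read. The other values were not whole, so counts were not recovered for the whole column. The reads given per member are estimates from this step, rounded to whole reads for the Poisson intervals. Total reads per library are the authors' values, per the file headers, in rows that name a group but not which library.

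GC content is that of the longest GENCODE M21 transcript (GRCm38), matched by symbol or synonym for 99.0% of genes. The trend is a lowess (fraction 0.3, statsmodels 0.14.6), run also on simulated ratios with a straight-line trend. Their noise was normal and drawn from the implied standard errors, so the simulation cannot show whether the spread of a single library is handled correctly. Promoters are RefSeq's, GRCm38.p6. Members, the 13 gene lists and the tests were chosen with earlier results of these data known. The genes named were all members and, from each list, those with the highest means (5 for the lineage lists, 3 for others) and the 3 with the smallest adjusted p in Aβ+DFMO against Aβ, except where a few were left out for length or named for their values, and 1 gene is not reported here; like-pattern genes were the 4 nearest to Mbp and to Pdgfra.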

Additional observations from a re-analysis of the deposited data

How the results depend on the processing

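The count of members called lower in Aβ+DFMO against Aβ was 8, and 8 or 9 with other thresholds (0.01, 0.1), with the p-values adjusted over genes with a mean of at least 200, or with ratios centred on the median of all such genes. With the GC trend taken out it was 5. The share of all genes called lower was 5.18% in the deposited results and 0.748% with the GC trend taken out. Counts before and after thus stand beside unlike shares. Over the 4 lineage lists, members included, 20 genes were called lower, against 10 with the GC trend taken out. With GC content averaged over transcripts, an alternative chosen after seeing the data, 11 were. The share of all genes under that alternative is not given here. The 3 list genes called higher became 0 under both GC settings and at an adjusted p under 0.01. GC settings change both the ratios and the set of genes adjusted over. The median log2 ratio of Aβ+DFMO to Control over the members was −1.01, and at its nearest to 0 was −0.94 under a pseudocount of 10, centring and GC. The gap between the medians of mature and progenitor members was 0.20, and ran up to 0.28 under these and without Pdgfra. No member's log2 ratio of Aβ+DFMO to Aβ changed sign. In Aβ against Control the counts of members and of lineage list genes stayed at 0 under each alternative. No paired analysis was possible because the deposited values per gene are group means, and for the same reason leaving out single libraries was not run. In the Aβ+DFMO library 5 members rest on about 35 to 73 reads, where depth limits precision most.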
